A study of Mus musculus with 10 samples.

Results

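Skeletal muscle genes are among the tissue-restricted genes that the thymus can switch on, and the loci of 10 of them were examined for called open chromatin in thymic epithelial cells (TEC). The genes were Myod1, Myf5, Myf6 and Myog, which encode the myogenic transcription factors, Chrna1, a subunit gene of the muscle acetylcholine receptor, and Des, Ckm, Actc1, Myh3 and Ttn, which encode muscle structural proteins and a muscle enzyme. They were chosen by name, with earlier results of these data known. Each was given a window of its mm10 RefSeq span with 10 kb on each side. Myf5 and Myf6 lie side by side and were taken as 1 locus, so the 10 genes made 9 loci, of 21886 loci tested over all protein-coding genes. The 9 windows held 82 of the 351411 regions obtained by merging the peaks of all lists, and 268 of the 882163 peaks.

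Open chromatin was profiled by ATAC-seq, in which a transposase cuts accessible DNA, in TEC of wild-type C57BL/6 mice, in a series about how Foxn1 is regulated. Foxn1 encodes the transcription factor that TEC development requires. There were 2 libraries in each of 5 groups: embryonic day 15 (E15), embryonic day 17 (E17), and 3 sorted fractions from day 6 named mTEC4, mTEC1 and mTEC2. The labels do not give the sorting markers, do not say what the fraction names stand for, name no fraction for the embryonic libraries, and do not say whether libraries came from separate animals, so p-values measure the spread between these libraries and that spread may be technical. Groups follow the sample titles, and the peak names stored in the lists use other fraction names, aTEC in the mTEC4 lists, eTEC in the mTEC1 lists, and hi or Hi in the mTEC2, E15 and E17 lists.

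The myogenic factors are basic helix-loop-helix proteins that bind short DNA sites called E-boxes and commit cells to the skeletal muscle fate. Myf5 and Myod1 act early, Myog drives terminal differentiation, and Myf6 acts in both early and late steps. Rare muscle-like cells have long been described in the thymus, where they include myoid cells and a muscle-like class of medullary TEC. The acetylcholine receptor of muscle is the main target of autoantibodies in myasthenia gravis, a disease linked to the thymus.

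Depth could not be read from these files, which hold peaks and no read counts. The day 6 lists held 40858 to 101917 peaks and the embryonic lists 86237 to 151646. Strong peaks, with a −log10 q of 5 or more, were 6.33 to 14.3% of a day 6 list and 41.7 to 48.8% of an embryonic list. No pair of lists shared more than 0.304% of identical peak intervals. Regions were called in at least 1 day 6 and at least 1 embryonic library for all 10 TEC marker genes, but not in every library. Foxn1 had 0 regions in both mTEC4 libraries, the keratin gene Krt5 had 0 in 4 day 6 libraries, and Epcam, an epithelial adhesion gene and the only one of the 10 with a higher mean at day 6, had 1 or 2 in every library. Summed over those 10 genes there were 16 to 51 regions in day 6 libraries and 62 to 105 in embryonic libraries. A region that is missing from a list was not called there, which does not show that the site was closed.

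Start-site windows were called at few of the muscle genes. RefSeq promoter windows of GRCm38.p6, 300 bases long and mostly before a gene's start, were at hand for 8 of the 10 genes. A window counted as called in a library where it overlapped a merged region that held a peak of that library. The library's own peak may lie in a part of the region outside the window. The Myog window was called in 0 of 6 day 6 libraries and 4 of 4 embryonic libraries, and the Des window in 1 day 6 library, mTEC2 replicate 1, and all 4 embryonic libraries. The Actc1 window was called in E17 replicate 2 alone, and those of Myf5, Chrna1, Ckm, Ttn and Myh3 in no library. The region met by the Des window runs past it to chr1:75360967. The Actc1 window begins at chr2:114052826, and the region it met ends at chr2:114052828. Over all 21263 promoter windows, 2.1% had calls in no day 6 list but in every embryonic one and 34.9% in no library. A called promoter was common in every list, since 41.6 to 56.0% of all windows were called in a day 6 library and 59.4 to 62.5% in an embryonic one.

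Of these windows, 4 are printed 5′ to 3′ on the gene's own strand because they show both outcomes at muscle genes. Myog (plus strand, chr1:134289754-134290053) and Des (plus strand, chr1:75360042-75360341) are the windows called in every embryonic library. Chrna1 (minus strand, chr2:73580289-73580588) was called in no library and Actc1 (minus strand, chr2:114052826-114053125) in 1. Capitals mark E-boxes (CANNTG), the site class of the myogenic factors, and in Actc1 also a CArG box, the site class of serum response factor.
Myog: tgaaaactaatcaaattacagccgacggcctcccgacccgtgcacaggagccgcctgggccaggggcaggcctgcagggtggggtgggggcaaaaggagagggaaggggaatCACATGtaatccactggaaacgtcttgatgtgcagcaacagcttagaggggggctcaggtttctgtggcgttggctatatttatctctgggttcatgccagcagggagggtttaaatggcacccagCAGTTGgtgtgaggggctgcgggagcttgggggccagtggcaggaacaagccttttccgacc
Des: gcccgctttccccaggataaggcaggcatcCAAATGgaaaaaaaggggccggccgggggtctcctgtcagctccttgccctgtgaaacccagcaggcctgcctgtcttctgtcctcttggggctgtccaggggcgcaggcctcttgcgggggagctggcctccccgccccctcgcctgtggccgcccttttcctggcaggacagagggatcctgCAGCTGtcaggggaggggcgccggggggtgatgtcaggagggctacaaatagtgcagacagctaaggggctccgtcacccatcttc
Chrna1: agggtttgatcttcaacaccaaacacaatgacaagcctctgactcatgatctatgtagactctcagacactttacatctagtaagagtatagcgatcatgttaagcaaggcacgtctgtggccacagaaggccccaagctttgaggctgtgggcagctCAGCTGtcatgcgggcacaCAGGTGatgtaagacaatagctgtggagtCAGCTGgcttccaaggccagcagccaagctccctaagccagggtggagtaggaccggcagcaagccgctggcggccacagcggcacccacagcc
Actc1: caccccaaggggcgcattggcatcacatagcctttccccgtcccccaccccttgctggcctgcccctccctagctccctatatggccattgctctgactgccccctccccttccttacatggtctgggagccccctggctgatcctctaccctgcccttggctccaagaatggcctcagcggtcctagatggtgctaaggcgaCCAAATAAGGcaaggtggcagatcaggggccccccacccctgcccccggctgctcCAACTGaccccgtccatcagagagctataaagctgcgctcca

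E-boxes were frequent in promoters at large. An E-box was present in 69.0% of all promoter windows, searched on both strands, and in 7 of the 8 muscle windows. The form CAGCTG was in 15.6% of all windows and in those of Des, Chrna1 and Ckm, and CACCTG (or CAGGTG on the other strand) in 19.7% of all windows and in those of Chrna1 and Ttn. The letters searched for a MEF2 site were YTAWWWWTAR (Y is C or T, W is A or T, R is A or G). They occurred in 2.74% of all windows and in that of Ttn. A CArG box, CCWWWWWWGG, was in 1.52% of all windows and in that of Actc1. Near matches were not counted, such as ctatatttat in the Myog window, which departs from the MEF2 letters at its last base. In Myog the E-boxes lay 138 to 133 and 12 to 7 bases before the start, and in Des 220 to 215 and 36 to 31 bases before it. The windows that were called and those that were not both held E-boxes. A match is a description of the letters and not a bound site, and a window without one lacks only those letters.

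Over the 9 loci, every mean region count was lower at day 6 than in the embryonic libraries. A lower mean was also the more common outcome over all 21886 loci tested, with 16448 lower and 4129 higher at day 6. Of the 9 loci, the difference passed the test at 3, Myog, Des and Myh3, and at 0 was the count higher at day 6. Over all genes the same test called 13.3% lower and 0.0868% higher at day 6, and at 15.6% of genes every day 6 library lay below every embryonic library, as it did at those 3 loci. The median difference in regions, day 6 minus embryonic, was -2.17 over the 9 loci and -1.17 over all genes tested. The test was an exact two-sided permutation test over the 210 ways to choose the embryonic libraries, adjusted over all genes by the Benjamini-Hochberg method, and its smallest possible p was 0.00476. Age and sorted fraction differ together between these groups and cannot be told apart, nor can fewer cells with an open site be told from less opening per cell in bulk libraries. The calls rest on raw counts, and after 2 corrections for list length 0 loci were called. With any 1 library left out 0 loci and 0 genes were called, where fewer arrangements allow a smallest p of 0.0079 to 0.0119, except without mTEC2 replicate 1, where 3 loci and 5034 genes had fewer regions at day 6.

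**Figure D1:**
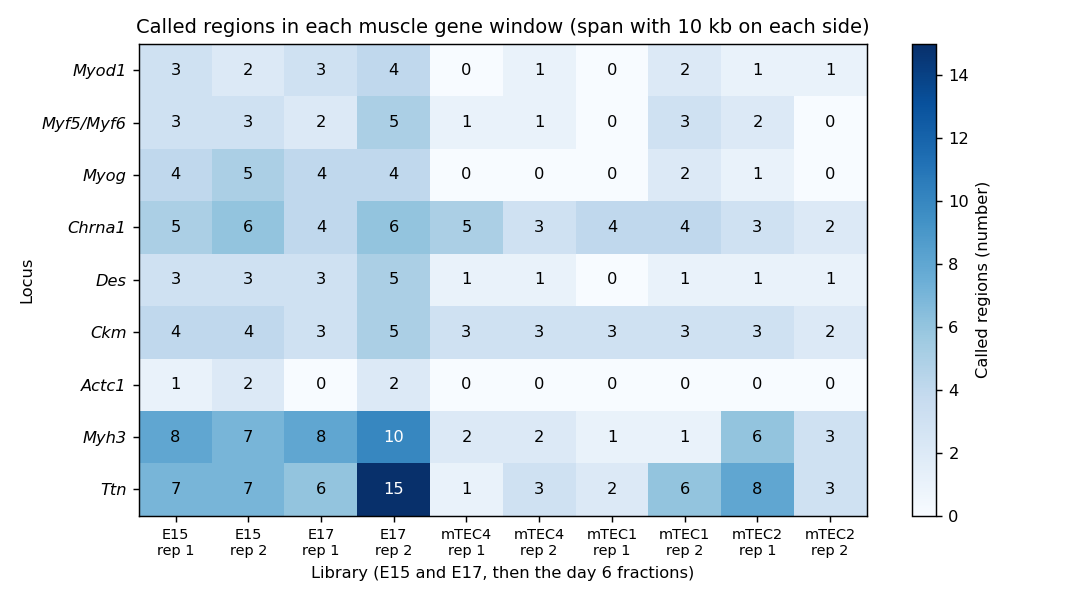
Number of called regions in the window of each muscle gene locus (down the page), for each of the 10 libraries (across, E15 and E17 followed by the day 6 fractions mTEC4, mTEC1 and mTEC2, replicates 1 and 2), with darker blue for more regions. Actc1 is at 0 in all 6 day 6 libraries, and Ttn reaches its highest count, 15, in E17 replicate 2.

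Summed over the 9 loci, the E15 libraries had 38 and 39 regions and the E17 libraries 33 and 56, while at day 6 the mTEC4 libraries had 13 and 14, the mTEC1 libraries 10 and 22 and the mTEC2 libraries 25 and 12. Every day 6 sum lay below every embryonic sum in these raw counts, but not with lists of equal length. At that length the sums were 8 to 17 at day 6 and 15 to 17 in embryonic libraries. In the full lists the mean number of regions per gene over all genes was 4.08 and 3.95 in E15 and 3.54 and 5.64 in E17. It was 1.99 and 2.40 in mTEC4, 2.31 and 2.53 in mTEC1 and 3.55 and 1.68 in mTEC2. E17 replicate 2, the longest list, and mTEC2 replicate 1, the longest at day 6, were the highest of their age in both measures. At least 1 region was called at 9, 9, 8 and 9 of the loci in E15 replicates 1 and 2 and E17 replicates 1 and 2, and at 6, 7, 4, 8, 8 and 6 of them in the day 6 libraries in the order mTEC4, mTEC1, mTEC2.

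Myog encodes myogenin, the factor that turns myoblasts into muscle fibres. It spans chr1:134290004-134292548. The E15 libraries had 4 and 5 regions there, both E17 libraries 4, both mTEC4 libraries 0, the mTEC1 libraries 0 and 2 and the mTEC2 libraries 1 and 0. The groups did not overlap, with 0.500 ± 0.837 regions at day 6 (SD, n = 6) and 4.25 ± 0.500 in embryonic libraries (SD, n = 4), a difference of -3.75 (exact permutation p = 0.00476, adjusted p = 0.0357).

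The region over the Myog start, chr1:134289660-134290043, had a call in 0 of 6 day 6 libraries and in 4 of 4 embryonic libraries, and covers most of the promoter window printed above. It was not a strong peak, with a −log10 q of at most 3.98 in E17 replicate 2, which put it in the top 54.2% of that list. The strongest Myog region lay 5127 bp upstream of the start at chr1:134284669-134284877, in mTEC2 replicate 1 and all 4 embryonic libraries, with a −log10 q of up to 8.29 in E17 replicate 1. Downstream, chr1:134298721-134299338 was called in mTEC1 replicate 2 and all 4 embryonic libraries. Of the 6 Myog regions, 3 were thus found in every embryonic library, and each day 6 call was in 1 library only.

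Myod1 encodes MyoD, which can convert other cell types to muscle. It spans chr7:46376474-46379092. The E15 libraries had 3 and 2 regions, the E17 libraries 3 and 4, the mTEC4 libraries 0 and 1, the mTEC1 libraries 0 and 2 and the mTEC2 libraries 1 each. The groups touched at 2 regions, and the means were 0.833 ± 0.753 at day 6 (SD, n = 6) and 3 ± 0.816 in embryonic libraries (SD, n = 4). The difference of -2.17 had an exact permutation p of 0.00952 and did not pass adjustment (adjusted p = 0.0517).

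A single Myod1 site accounted for most day 6 calls. The region chr7:46379113-46379309, next to the high-coordinate end of the gene, was called in 8 of 10 libraries, namely mTEC4 replicate 2, mTEC1 replicate 2, both mTEC2 libraries and all 4 embryonic ones. Its −log10 q was 2.60 to 4.39 in the 4 day 6 libraries that had it and up to 35.7 in embryonic libraries, in E17 replicate 2, where it was in the top 2.13% of the list. It was the strongest peak of the window in each of those 8 libraries. The neighbouring region chr7:46380582-46380908, with a −log10 q of up to 12.1, was found in 0 of the 6 day 6 lists and in each embryonic list.

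Myf5 and Myf6 encode the other two myogenic factors, and their joint span is chr10:107482908-107494723. Both E15 libraries had 3 regions, the E17 libraries 2 and 5, both mTEC4 libraries 1, the mTEC1 libraries 0 and 3 and the mTEC2 libraries 2 and 0. The ranges overlapped, with 1.17 ± 1.17 at day 6 (SD, n = 6) and 3.25 ± 1.26 in embryonic libraries (SD, n = 4), and the difference of -2.08 did not pass (exact permutation p = 0.0571, adjusted p = 0.14).

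The region inside Myf6, chr10:107493369-107493908, was called in 8 libraries, including both mTEC4 libraries, mTEC1 replicate 2 and mTEC2 replicate 1. In mTEC2 replicate 1 it had a −log10 q of 13.5 and stood in the top 2.15% of the list, against a best of the top 48.6% in the E17 libraries, where it was the strongest peak of the window. The other site, chr10:107486756-107487314, covers the upstream end of the Myf5 span and was called in mTEC1 replicate 2, mTEC2 replicate 1 and all 4 embryonic libraries. The Myf5 promoter window of RefSeq begins at a start further inside the span (minus strand, chr10:107486085-107486384) and had no call. With all lists shortened to the same length, the mean at this locus was 0.667 regions at day 6 and 0.250 in embryonic libraries, the reverse of the raw difference (exact permutation p = 0.524, adjusted p = 0.989).

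**Figure D2:**
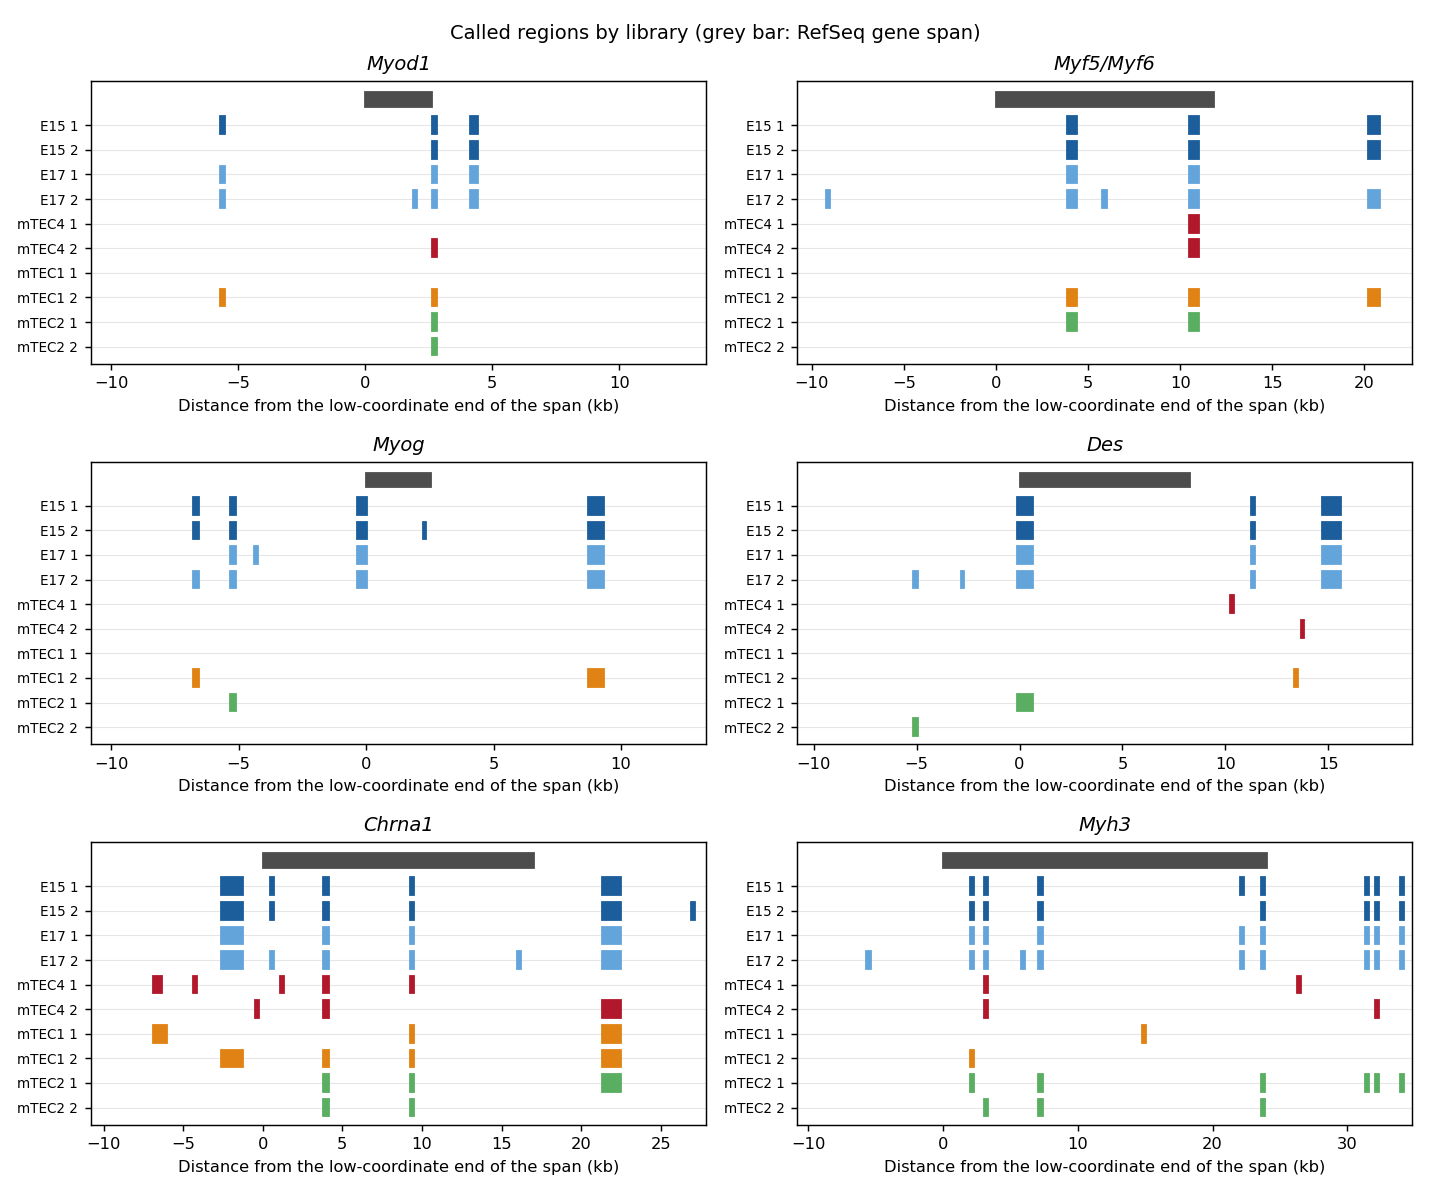
Called regions (coloured blocks) by library in the windows of 6 loci, with distance from the low-coordinate end of the gene span in kb on the horizontal axis and libraries down the page in the order E15, E17, mTEC4, mTEC1, mTEC2. Blocks are merged regions drawn at their full extent, with a minimum width for visibility, and the grey bar is the RefSeq span (for Myf5 and Myf6 the joint span with the gap between them). At Myog the start-site block is in the 4 embryonic libraries alone, and at Myh3 2 blocks are shared by both mTEC2 libraries and the embryonic libraries.

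Chrna1 encodes the alpha 1 subunit of the muscle acetylcholine receptor, which carries the main autoantibody epitopes in myasthenia gravis. It spans chr2:73563281-73580338 on the minus strand. The E15 libraries had 5 and 6 regions, the E17 libraries 4 and 6, the mTEC4 libraries 5 and 3, the mTEC1 libraries 4 each and the mTEC2 libraries 3 and 2. The ranges overlapped, with 3.50 ± 1.05 at day 6 (SD, n = 6) and 5.25 ± 0.957 in embryonic libraries (SD, n = 4), and the difference of -1.75 did not pass (exact permutation p = 0.0476, adjusted p = 0.124).

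The shared Chrna1 regions were inside the gene and upstream of it rather than at its start. Inside the gene, chr2:73567078-73567452 was called in all but mTEC1 replicate 1 and reached the top 1.85% of the list of E17 replicate 2, and chr2:73572538-73572766 was called in all but mTEC4 replicate 2. At 4266 bp upstream of the start, chr2:73584604-73585782 was called in 4 day 6 libraries and all 4 embryonic libraries, and in mTEC1 replicate 2 it stood in the top 4.11% of the list. The window held 12 regions, of which 5 (41.7%) were called at day 6 alone, against 51.0% of all regions. Divided by the library's mean regions per gene, the Chrna1 count was higher at day 6 by 0.28 (exact permutation p = 0.429, adjusted p = 0.695), the reverse of the raw difference.

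Des encodes desmin, the intermediate filament of muscle, and spans chr1:75360292-75368579. Both E15 libraries had 3 regions, the E17 libraries 3 and 5, both mTEC4 libraries 1, the mTEC1 libraries 0 and 1 and both mTEC2 libraries 1. All day 6 libraries were below all embryonic ones, with 0.833 ± 0.408 (SD, n = 6) against 3.50 ± 1 (SD, n = 4), a difference of -2.67 (exact permutation p = 0.00476, adjusted p = 0.0357).

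The day 6 calls at Des were mostly at other places than the embryonic ones. The start-site region chr1:75360166-75360967 was called in mTEC2 replicate 1 and all 4 embryonic libraries, and its best rank was the top 57.2% of a list. Both regions that each day 6 list lacked and each embryonic list held lay downstream, chr1:75371540-75371656 (−log10 q up to 11.3) and chr1:75374990-75375886. The second of these lies within 1 kb of an end of the neighbouring gene Speg, which encodes a striated muscle kinase. The single calls of both mTEC4 libraries and mTEC1 replicate 2 were 3 separate regions that no other library had.

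Ckm encodes muscle creatine kinase, which buffers ATP in muscle, and spans chr7:19411094-19421583. Both E15 libraries had 4 regions, the E17 libraries 3 and 5, the mTEC4 and mTEC1 libraries 3 each and the mTEC2 libraries 3 and 2. The difference was small, with 2.83 ± 0.408 at day 6 (SD, n = 6) and 4 ± 0.816 in embryonic libraries (SD, n = 4), and did not pass (-1.17 regions, exact permutation p = 0.0286, adjusted p = 0.0931).

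Ckm held the only regions of the 9 loci that were called in all 10 libraries, and there were 2 of them, or 2.44% of the 82, against 2.76% of all regions. The region chr7:19421174-19421692 covers the downstream end of Ckm, and chr7:19403831-19404321 lies 6773 bp upstream of its start, within 1 kb of an end of Klc3, a kinesin light chain gene. A further upstream region, chr7:19405493-19405728, was called in all but mTEC2 replicate 2. The promoter of Ckm itself had no call. Scaled by the library mean per gene, Ckm was higher at day 6 by 0.28 (exact permutation p = 0.0429, adjusted p = 0.213), the reverse of the raw difference.

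Actc1 encodes cardiac alpha actin, which immature skeletal muscle also makes, and spans chr2:114047282-114052875 on the minus strand. The E15 libraries had 1 and 2 regions, the E17 libraries 0 and 2, and all 6 day 6 libraries 0. With 0 ± 0 at day 6 (SD, n = 6) and 1.25 ± 0.957 in embryonic libraries (SD, n = 4) the difference of -1.25 did not pass (exact permutation p = 0.0333, adjusted p = 0.0981). E17 replicate 1 was also at 0. Its best region, chr2:114049903-114050370 inside the gene, was called in 3 embryonic libraries. No Actc1 region was among the 40858 strongest peaks of any list.

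Myh3 encodes the embryonic myosin heavy chain, made by developing and regenerating fibres, and spans chr11:67078273-67102291. The E15 libraries had 8 and 7 regions, the E17 libraries 8 and 10, the mTEC4 libraries 2 each, the mTEC1 libraries 1 each and the mTEC2 libraries 6 and 3. Every day 6 library lay below every embryonic one, with 2.50 ± 1.87 (SD, n = 6) and 8.25 ± 1.26 (SD, n = 4), and the difference of -5.75 was the largest of the 9 loci (exact permutation p = 0.00476, adjusted p = 0.0357). Both mTEC2 libraries had more than the 4 other day 6 libraries. The strongest region, chr11:67110282-67110510 beyond the high-coordinate end of the gene, stood in the top 2.38% of the list of E17 replicate 2 and was also called in mTEC4 replicate 2 and mTEC2 replicate 1.

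Ttn encodes titin, the elastic giant protein of the sarcomere, and its span, chr2:76703980-76982557, is the longest of the set. Both E15 libraries had 7 regions, the E17 libraries 6 and 15, the mTEC4 libraries 1 and 3, the mTEC1 libraries 2 and 6 and the mTEC2 libraries 8 and 3. The ranges overlapped, and the difference of -4.92 between 3.83 ± 2.64 at day 6 (SD, n = 6) and 8.75 ± 4.19 in embryonic libraries (SD, n = 4) did not pass (exact permutation p = 0.0429, adjusted p = 0.117). Of its 27 regions 18 (66.7%) were called in 1 library each, against 55.1% of all regions, and 12 (44.4%) at day 6 alone, against 51.0% of all regions. The strongest peak of all 9 windows was here, chr2:76969037-76969215, with a −log10 q of 44.6 in E17 replicate 2, in the top 0.795% of that list.

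**Figure D3:**
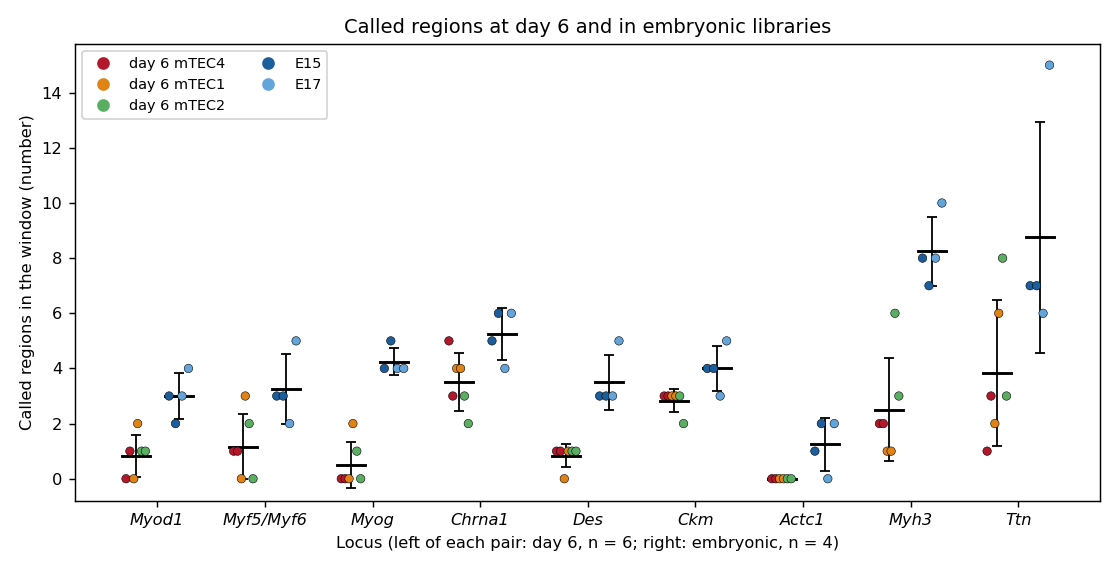
Called regions in each window, with day 6 libraries (n = 6) left and embryonic libraries (n = 4) right of each pair. Points are libraries coloured by group, horizontal bars are means and vertical bars are 1 SD. At Myog, Des and Myh3 no day 6 point reaches an embryonic point, and at Chrna1 and Ckm the ranges meet.

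A pattern limited to 1 day 6 fraction was seen at Myh3 and Ttn, and it was picked out after the values were seen. It rests on the fraction names of the titles. The regions chr11:67085349-67085725 and chr11:67101838-67101987 inside Myh3 and chr2:76969037-76969215 inside Ttn were called in both mTEC2 libraries, in no mTEC4 or mTEC1 library and in all 4 embryonic libraries. That is 3 of the 28 muscle regions called in every embryonic library, against 2.65% (1741) of the 65702 such regions of the whole genome. The same pattern with both libraries of mTEC4 or of mTEC1 was found at 0 muscle regions, and at 108 and 182 regions genome-wide. With lists of equal length, both mTEC2 libraries were above the 4 other day 6 libraries at Myh3 (4 and 3 regions against 1 each) and at no other of the 9 loci, against 3.91% of all genes. No p is given, since 2 of 6 day 6 libraries cannot give a p under 0.0667 in an exact permutation test.

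Region by region, the 28 muscle regions found in all 4 embryonic libraries were mostly shared with some day 6 library. Of them 4, at Myod1, Myog and Des, had no day 6 call, or 14.3%, against 22.9% of the 65702 regions genome-wide (and 4.29% of all 351411 regions). The count of 4 became 7 when E17 replicate 1 was left out, 7 when mTEC1 replicate 2 was, and 8 when mTEC2 replicate 1 was. Leaving a library out loosens the rule for every region, so the count cannot fall, and the genome-wide share at these settings is not given. In single day 6 libraries the share of the 28 that was called was 25% and 35.7% in mTEC4, 17.9% and 53.6% in mTEC1 and 67.9% and 35.7% in mTEC2. Over the 65702 regions these shares were 22.3% and 35.5%, 28.7% and 50%, and 65.6% and 34.7% in the same order. The muscle share was lower than the genome-wide share in mTEC1 replicate 1 alone, and in the 5 other libraries the shares were within 4 percentage points of each other.

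Regions called at day 6 alone made up 26.8% of the regions in the 9 windows (22 of 82), against 51.0% of all regions (179180). In the windows 21 of the 22 (95.5%) were called in 1 library each, against 79.6% of such regions genome-wide. Their median width was 82.5 bp, against 105 bp genome-wide, and 0 had a −log10 q of 5 or more, the highest being 4.73, against 3.16% genome-wide. The 28 regions in all 4 embryonic libraries had a median width of 302 bp, against 451 bp for such regions genome-wide, and 24 of them (85.7%) reached a −log10 q of 5 in some library, against 87.8%. Of all 82 regions 48.8% were called in 1 library, against 55.1% of all regions, and E17 replicate 2 held 15 of those 40.

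**Figure D4:**
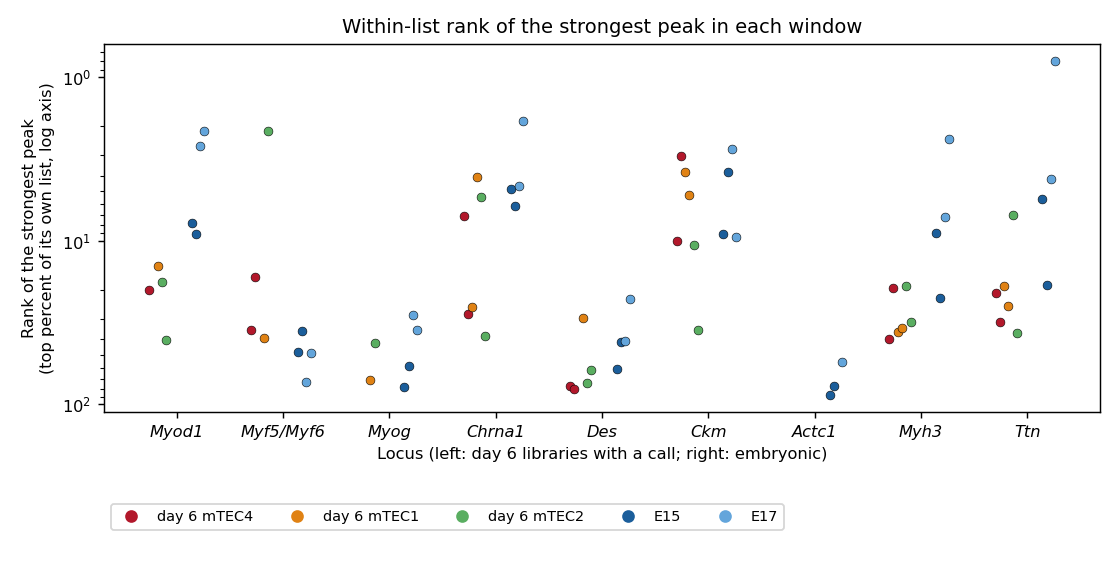
Rank of the strongest peak of each window within its own list, as top percent on a log axis with stronger peaks higher, for day 6 libraries with a call (left) and embryonic libraries (right). Ttn in E17 replicate 2 is highest, at the top 0.795%, no day 6 point stands for Actc1, and the best rank at Myog is the top 28.6%.

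After correction for list length no locus was called. When each count was divided by the library's mean over all genes, 0 loci and 0 of all genes (0%) were called. That was by the exact permutation test with Benjamini-Hochberg adjustment. By the same test 5 loci and 4719 genes had an unadjusted p under 0.05, in either direction. Of these loci Ckm was higher at day 6 and the others were lower. Over all 21886 loci tested the median scaled difference was 0.0474, and 9059 were below 0. For the 9 muscle loci it was -0.352, and 7 were below 0. Scaled in this way, Myog stood at 0.18 at day 6 and 1.02 in embryonic libraries, a difference of -0.84 (exact permutation p = 0.0143, adjusted p = 0.169). With every list shortened to its 40858 strongest peaks, again 0 loci and 0 genes (0%) were called. At that length 1 locus and 2633 genes had an unadjusted p under 0.05 by the same test, in either direction. That locus was Myh3, with 1.83 regions at day 6 and 4.25 in embryonic libraries (exact permutation p = 0.0238, adjusted p = 0.375). Only 1 list, that of E17 replicate 1, kept a Myog region at that length.

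The share of each window covered by peaks was smaller at day 6 for 9 of 9 loci at an adjusted p under 0.05 by the exact permutation test, where 70.2% of all genes were called. At Myog peaks covered 0.240 ± 0.435% of the window at day 6 (SD, n = 6) and 4.66 ± 0.975% in embryonic libraries (SD, n = 4). The median peak was 106 to 135 bp wide in the day 6 lists and 185 to 200 bp wide in the embryonic lists.

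A wider list of 64 muscle genes was taken by their roles. Of them 10 were called with fewer regions at day 6 and 0 with more, 15.6% of the list against 13.3% of all genes, and the median difference was -2.13 against -1.17. Fewer regions were called at 3 of 12 transcription genes, 0 of 9 acetylcholine receptor and end-plate genes, 3 of 31 sarcomere genes, 2 of 10 membrane, calcium and energy genes and both fusion genes. After scaling or at equal list lengths, 0 of the 64 were called by the exact permutation test. By that test 14 and 12 had an unadjusted p under 0.05, in either direction. Leaving out 1 library gave 0 called, or 17 without mTEC2 replicate 1.

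The mean count was above the embryonic one at day 6 for 4 of the 64 genes, against 4129 of all 21886 loci tested. The 4 are named here after their values were seen, and none of them passed. Dmd, the dystrophin gene on chromosome X, had the largest difference of the list in either direction, with 32.8 ± 15.4 regions at day 6 (SD, n = 6) and 18.8 ± 8.85 in embryonic libraries (SD, n = 4; exact permutation p = 0.143, adjusted p = 0.268). Its window of 2410387 bp was the longest of the list, and per 10 kb it held 0.136 regions at day 6 and 0.0778 in embryonic libraries. At equal list lengths Dmd had 13.2 regions at day 6 and 2.75 in embryonic libraries (exact permutation p = 0.019, adjusted p = 0.344). The myosin genes Myh2 and Myh8 had 0.500 and 0.833 regions at day 6 and Cav3, the muscle caveolin gene, 0.333, and all 3 had 0 in the embryonic libraries.

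The fusion genes Mymk and Mymx encode myomaker and myomixer, which merge myoblasts into fibres. Mymk had 2 ± 1.26 regions at day 6 and 6.25 ± 0.500 in embryonic libraries, and Mymx 1.17 ± 1.17 and 4.75 ± 0.500. Mef2c, which encodes a partner factor of the myogenic proteins, had 3.33 ± 2.58 at day 6 and 14.0 ± 3.92 in embryonic libraries, and Tcf12, which encodes an E-protein partner, 6.33 ± 2.07 and 15.5 ± 7.05. Ryr1, the calcium release channel gene of muscle, had 4.67 ± 2.73 and 15.8 ± 1.71, and Mb, the myoglobin gene, 2.33 ± 1.21 and 5.75 ± 0.957. Mybpc1, a myosin binding protein gene, had 2.50 ± 1.22 and 10.3 ± 2.99, and Tnnt1, the slow troponin T gene, 3.50 ± 0.548 and 6.25 ± 0.500. All 8 had fewer regions at day 6 (SD over n = 6 and n = 4 libraries, exact permutation p = 0.00476, adjusted p = 0.0357 for each). After scaling Tnnt1 was level, at 1.49 at day 6 and 1.5 in embryonic libraries, and at equal list lengths Tcf12 had 3.33 regions at day 6 and 3.25 in embryonic libraries, the reverse of the raw difference.

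The partner subunits of Chrna1 and the proteins that cluster the receptor did not pass. Chrnb1 had 3.17 ± 1.17 regions at day 6 and 5.25 ± 0.500 in embryonic libraries, Chrnd 1.83 ± 2.23 and 4 ± 0.816, Chrng, the fetal subunit, 2 ± 1.26 and 2.75 ± 1.26, and Chrne, the adult subunit, 1.33 ± 0.516 and 3.50 ± 1.29. Musk, the kinase gene of the end plate, had 2.17 ± 1.33 and 3.75 ± 1.5, and Rapsn, the gene of the clustering protein rapsyn, 1.5 ± 0.548 and 2 ± 0.816. Acta1, skeletal actin, and Pax7, the satellite cell factor, were also not called, with 0.833 ± 0.983 and 2 ± 0 for Acta1 and 2 ± 1.79 and 5.5 ± 3.32 for Pax7. Adjusted p values for these 8 genes ran from 0.0660 for Chrne to 0.632 for Chrng (exact permutation tests, n = 6 and n = 4).

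Outside the muscle lists, the counts most like those of Myog over the 10 libraries, after scaling and among 13367 genes, were those of Efemp1 (Pearson r = 0.978), an extracellular matrix gene, Ap3b2 (r = 0.967), a vesicle adaptor gene, and Pdpn (r = 0.960), the podoplanin gene. These correlations describe counts that share their libraries and carry no p. Efemp1 had 5 and 6 regions in E15, 4 and 6 in E17, 0 in both mTEC4 libraries, 0 and 3 in mTEC1 and 1 and 0 in mTEC2.

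Markers of other cells that a TEC sort could hold also had called regions. Summed over 8 mesenchyme genes there were 7 to 18 regions in day 6 libraries and 25 to 42 in embryonic libraries, and 1 of the 8, Twist1, had none in any day 6 library. Over 6 endothelial genes there were 12 to 31 at day 6 and 26 to 51 in embryonic libraries, and over 8 thymocyte genes 12 to 43 and 26 to 43. Over 6 macrophage and dendritic cell genes there were 7 to 17 at day 6 and 7 to 13 in embryonic libraries. Divided by the library's mean over all genes, the mean count per macrophage and dendritic cell gene was 0.695 to 1.11 at day 6 and 0.327 to 0.384 in embryonic libraries, so these ranges did not overlap and were higher at day 6. The raw mesenchyme and TEC sums, like the sums over the 9 muscle loci, did not overlap between the ages. After the same division the mean per mesenchyme gene was 0.434 to 0.729 at day 6 and 0.766 to 0.989 in embryonic libraries. Per TEC gene it was 0.802 to 1.58 and 1.75 to 1.91. Both thus stayed lower at day 6, while the thymocyte and endothelial ranges overlapped. Of single genes, 15.6% had every day 6 library below every embryonic one in raw counts. The like share after scaling, in either direction, and the share for sums over sets of genes are not given. Over all 21886 loci tested the median scaled difference was 0.0474, with 9059 below 0. The part of these sums in the muscle results was not tested. An open site near a gene does not show that the gene was transcribed, and no transcript was measured in these libraries.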

How the data were processed

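The data are 10 broad peak lists, 1 per library, so replicates were not pooled. The submitters' processing notes list MACS2, Bowtie2, cutadapt and Picard, and the build mm10. Versions, and whether reads were shifted for the transposase, are not given in the sources used here. Each peak has a score, a fold enrichment (a ratio) and a −log10 p and −log10 q, all deposited by the authors and belonging to their own list. Ranks and filters on them stayed within a list, and the score was not used. Without read counts the depth of a library is unknown, and counting intervals could not be given. The lowest −log10 q was 1.0002.

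Peaks that overlapped or touched were merged over all libraries, and a region counted for each library that had a peak in it. Regions were counted in the RefSeq span (GRCm38.p6) with 10 kb on each side of 21887 protein-coding genes, Myf5 and Myf6 as 1 locus, with no filter on low counts. Groups come from the sample titles. The 6 day 6 libraries were compared with the 4 embryonic libraries by an exact two-sided permutation test of the mean count over 210 arrangements. Benjamini-Hochberg adjustment was over all genes, with a threshold of 0.05. The test was tried on simulated counts in which the library means were made equal between the ages. That simulation does not cover the difference in list length between the ages. Alternatives were equal list lengths, scaling, a −log10 q of at least 5, other windows and overlaps, each library left out and a replicate block. Python 3.11.15, numpy 2.4.6, pandas 2.3.3, scipy 1.17.1 and matplotlib 3.10.9 were used.

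The members and lists were chosen with earlier results of these data known. All 10 genes were named. Regions were named where they had the highest within-list rank (by −log10 q) of a locus, were called in at least 8 libraries or in all 4 embryonic and no day 6 library, or overlapped a gene start. The few others were chosen after their values were seen. Of the wider list of 64 genes, all matched by symbol, 10 were named whatever their values and up to 6 more where they passed, those with the largest differences. Promoter sequences come from RefSeq (GRCm38.p6) and 8 of the 10 genes matched. Whether replicate numbers pair libraries across groups is unknown, and the reported test used no pairing.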

Additional observations from a re-analysis of the deposited data

Results flagged for a closer look

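A library stood apart from the others of its age, by its gap to the nearest count relative to the whole range, in 5 of the 17 groups of counts checked. Chance gives about 1 in 20 such groups with continuous values, and small whole counts with many ties give more. At Myog E15 replicate 2 had 5 regions, with 4 in the other embryonic libraries. At Des mTEC1 replicate 1 had 0 regions, with 1 in the other day 6 libraries, and E17 replicate 2 had 5, with 3 in the other embryonic libraries. At Ckm mTEC2 replicate 2, the shortest list, had 2 regions, with 3 in the other day 6 libraries. At Ttn E17 replicate 2, the longest list, had 15 regions, with 6 or 7 in the other embryonic libraries.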

How the results depend on the processing

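Of the 9 loci, 3 were called with fewer regions at day 6. The count was 3 when peaks were counted in place of regions, with 50 bp of overlap for merging, by peak midpoints and without regions at ends of other genes. It was 0 at equal list lengths, 0 after scaling to the library mean and 0 for the gene span alone, and under each of these 0 of all genes were called. It was 5 with a −log10 q of at least 5, 5 with 25 kb on each side and 9 by percent of window covered, settings under which 11208, 4905 and 15360 genes were called lower. With the q limit Myog (-0.50, adjusted p = 0.191) and Des (-1, adjusted p = 0.0575) were not called by the exact permutation test, and the 5 were Myod1, Chrna1, Ckm, Myh3 and Ttn. With 25 kb the 5 were Myf5/Myf6, Myog, Chrna1, Des and Myh3. Leaving out 1 library gave 0 to 3 loci. For the wider list, 10 in the reported test, these counts were 0 at equal lengths, 0 after scaling, 0 for the span alone, 42 with the q limit, 20 with 25 kb, 52 by percent covered and 0 to 17 with 1 library left out. The 4 regions found in no day 6 and all embryonic libraries were 0 at equal lengths and 7 with the q limit. They were 4 to 8 with 1 library left out, which cannot lower the count. The genome-wide share at these settings is not given, so these counts describe the 9 windows alone. The q limit left 4375 to 14533 peaks in a day 6 list and 42064 to 70243 in an embryonic list. Among settings chosen after seeing the data, leaving out the longest and the shortest list gave 0 loci, 0 listed genes and 0 of all genes, and testing only genes with a region gave 4 loci and 16 listed genes, with 4006 genes called lower. The single-locus difference reversed at Myf5/Myf6 at equal lengths (0.42) and, after scaling, at Chrna1 (0.28) and Ckm (0.28). The cause was not tested. With 1 library left out or a block there are fewer arrangements, which raises the smallest p.

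Whether replicate numbers pair libraries is unknown. Their deviations correlated from -0.296 to 0.368, and in 1 of 10 group pairs, mTEC1 with mTEC4, over 0.1. With 2 libraries a group such correlations cannot exclude pairing. The exact permutation test within the replicate block called 0 loci, 0 listed genes and 0 of all genes. By that test 7135 genes had an unadjusted p under 0.05, in either direction. Read depth limits what the lists can show and is unknown.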
